A study of Mus musculus with 2 samples.

Results

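Histone lysine methylation genes encode the enzymes that place methyl groups on lysines of the histone tails (writers) and the enzymes that take the groups off (erasers). Subunits of some writer complexes are included and called core subunits here, with Jarid2 counted among them. The set was fixed by gene symbol, as 57 genes grouped by histone residue and by role. Its rule uses no measured value, but genes, groups and lists were chosen with earlier results of these data known. All 57 were found among the 54532 Ensembl gene identifiers of the deposited count table, and all 57 had a mean of at least 10 read counts, as did 13041 genes of the table. Their expression was compared in primary CD8+ T cells from spleens of wild-type (WT) mice that the labels describe with the abbreviation ND, which they do not spell out. There was 1 bulk RNA-seq library of cells kept for 8 h in RPMI 1640, called complete medium here, and 1 of cells kept for 8 h in the same medium lacking methionine. Neither the number, age or sex of the mice nor any stimulus given to the cells is in the labels. With 1 library per medium, nothing below could be checked against the spread between cultures, and no test or p-value is given.

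Methyltransferases of histones use S-adenosylmethionine, made from methionine and ATP, as the methyl donor, and release S-adenosylhomocysteine. Most carry a catalytic SET domain, whereas Dot1l has a different fold. Erasers are of a pair of kinds. The KDM1 enzymes use a flavin cofactor, and the Jumonji (JmjC) enzymes use iron, oxygen and 2-oxoglutarate. Methylation of H3K4, H3K36 and H3K79 is found at active genes, and that of H3K9 and H3K27 at silent ones. In CD8+ T cells these marks differ between naive, effector and memory states. The comparison asks which of these transcripts differed when the methyl-donor precursor was withheld.

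The complete-medium library held 14646527 read counts over 19110 detected genes and the methionine-free library 19647681 over 18374. Levels are given in CPM, read counts per 1000000 after TMM scaling, and 1 read count was worth 0.0681 and 0.051 CPM. A fold is the ratio of CPM between the libraries, and the range in brackets after it is its 95% exact counting interval, which covers counting error only. Genes are called higher or lower at 1.5-fold by size alone. The 7 CD8+ T cell markers summed to 2229 CPM with and 1955 CPM without methionine, against 4.15 and 4.54 CPM for the 2 CD4+ T cell markers, 13.5 and 7.5 CPM for 6 B cell markers and 6.54 and 6.99 CPM for 9 myeloid markers. Of the myeloid markers 2 were at 0 in each library. The 4 NK cell markers summed to 160 and 136 CPM, of which Eomes, which CD8+ T cells also express, made up 159 and 136. The 8 erythroid and platelet markers summed to 3.54 and 3.83 CPM, with Hba-a1 at 2 and 26 read counts. The 26 cell cycle genes were all lower without methionine, from Ccna2 at 40.1-fold (31.1 to 52.7) to Mcm2 at 1.67-fold (1.61 to 1.73), with a summed level of 7119 CPM against 1937 CPM. In a bulk sample, fewer cells of a kind and less RNA per cell cannot be told apart.

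Across the set, the H3K9 writers had a median log2 difference of -0.30, the H3K4 writers 0.48 and the erasers of all residues 0.44. The median over all measured genes was 0.04. With the length correction described at the end, the medians of the 3 groups were -0.38, 0.30 and 0.35. Of the 57 genes, 8 (14%) were past 1.5-fold upward and 6 (10.5%) past it downward. Of all 13041 measured genes 15.7% were past it upward and 18.1% downward, so the shares in the set lay below those of the table. Every member had a mean of at least 100 read counts. Among the 9522 genes of the table with such a mean, 12.2% were higher and 13.7% lower, close to the shares in the set. The number of genes past the threshold is therefore not a result about these genes. At 2-fold, 2 of the 57 were higher, Kdm2b and Kdm5b, and 2 were lower, Nsd2 and Dpy30. Of all measured genes 5.89% and 9.49% were past it. Of the 9522 genes with a mean of at least 100 read counts, 266 were higher and 576 lower at 2-fold.

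**Figure D1:**
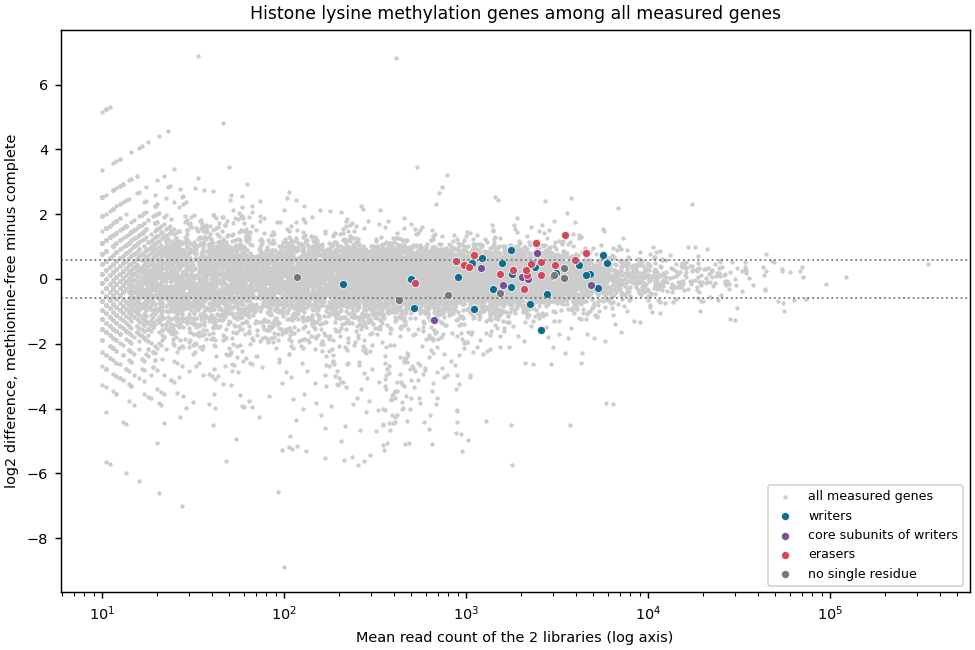
log2 difference (methionine-free minus complete) of each measured gene against its mean read count in the 2 libraries, on a log axis, with the 57 histone lysine methylation genes in colour by role and dotted lines at 1.5-fold. The coloured points lie between -1.59 and 1.35, inside the spread of the grey points of all 13041 genes.

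The median log2 difference of the set was 0.14, beside 0.04 over all measured genes. The 57 transcripts together made up 0.702% of all read counts in complete medium and 0.799% in the absence of methionine. By role, the 25 writers had a median log2 difference of 0.11, the 7 core subunits -0.01 and the 18 erasers 0.44. Of the erasers 16 of 18 had a ratio above 1, as did 15 of 25 writers, 3 of 7 core subunits and 52.4% of all measured genes. Past 1.5-fold there were 4 of 18 erasers upward (22.2%) and none downward. The shares were 15.7% and 18.1% of all measured genes, and 12.2% and 13.7% of the 9522 with a mean of at least 100 read counts. On 18 genes this count is not read as a result about erasers. Summed over the 18 erasers, the level went from 1850 CPM in complete medium to 2621 CPM, while the 25 writers summed to 3543 and 3753 CPM.

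**Figure D2:**
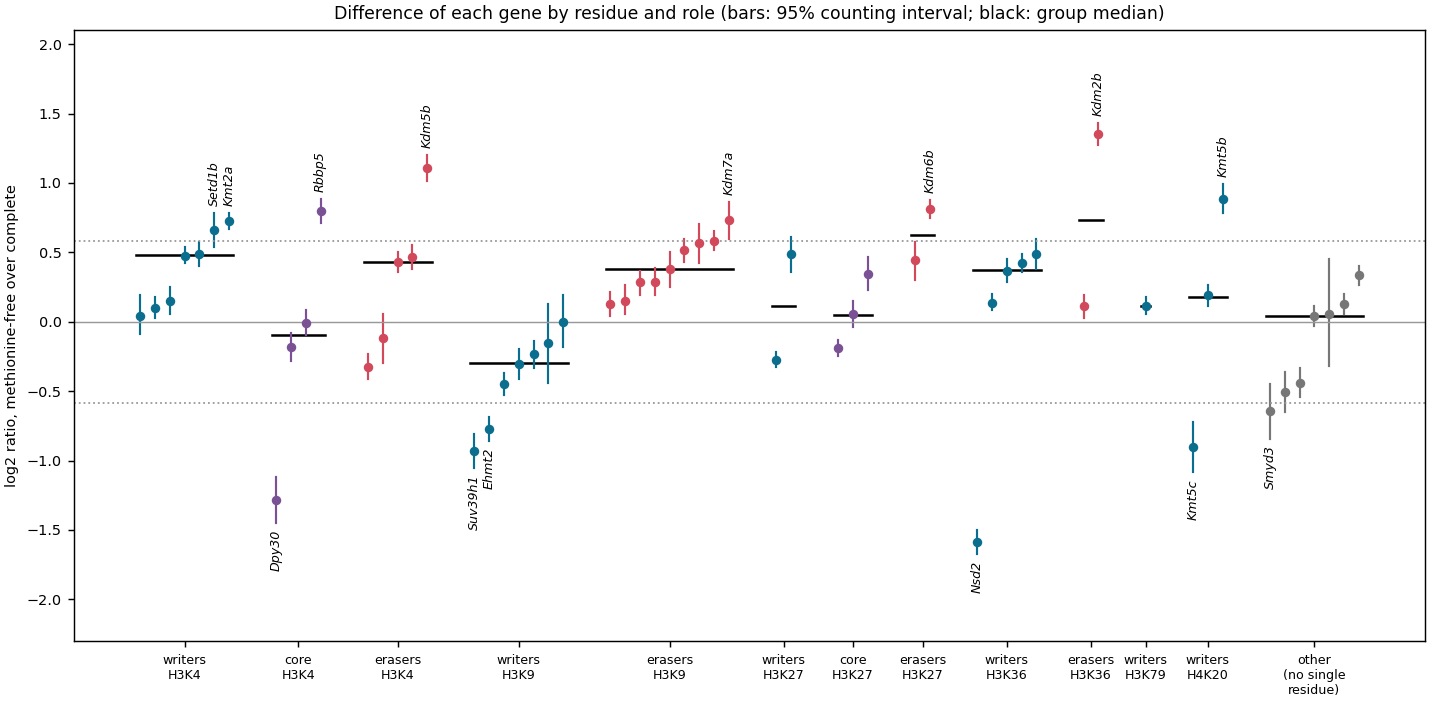
log2 ratio (methionine-free over complete) of each gene, ordered within its group, in columns by residue and role, with vertical bars for the 95% counting interval, black lines for group medians and dotted lines at 1.5-fold. Genes past 1.5-fold are named. The 9 H3K9 erasers lie above 0 and the 7 H3K9 writers at or below it.

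The upstream DNA of the members that differed most is shown here because these genes lay farthest apart within the set. The rule took the 3 lowest and 3 highest log2 differences: Nsd2, Dpy30 and Suv39h1, and Kdm2b, Kdm5b and Kmt5b. Nsd2 is named only, and the other 5 are printed. Each line gives the 250 bases before a transcription start, 5′ to 3′ on the gene's strand, from RefSeq on GRCm38.p6, the assembly also called mm10. Among the starts RefSeq gives for a gene, the one with the most coding GENCODE transcripts starting within 100 bases was taken. For Dpy30 4 of 6 coding transcripts started there, for Suv39h1 2 of 3 and for Kdm5b 2 of 2. For Kdm2b only 2 of 8 did and for Kmt5b 5 of 15, so most of their transcripts start elsewhere. Capitals mark a match to any of 5 motifs, searched on both strands: GCGGGAA (E2F), CCAAT (NF-Y), TTTGAA (the cell cycle element CHR), CACGTG (E-box) and TGATGNAA (ATF4-C/EBP).
Dpy30, chr17:74316395-74316644, minus strand: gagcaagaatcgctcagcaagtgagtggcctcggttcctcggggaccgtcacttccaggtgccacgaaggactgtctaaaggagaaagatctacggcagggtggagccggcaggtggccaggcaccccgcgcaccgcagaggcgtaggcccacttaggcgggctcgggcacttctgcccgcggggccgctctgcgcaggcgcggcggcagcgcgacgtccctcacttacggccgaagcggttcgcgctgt
Suv39h1, chrX:8074761-8075010, minus strand: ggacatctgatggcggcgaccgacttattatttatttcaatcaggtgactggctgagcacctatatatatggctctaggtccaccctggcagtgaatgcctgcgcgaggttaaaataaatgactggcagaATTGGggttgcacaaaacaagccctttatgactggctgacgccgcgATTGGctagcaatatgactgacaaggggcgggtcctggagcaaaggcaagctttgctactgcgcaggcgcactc
Kdm2b, chr5:122988508-122988757, minus strand: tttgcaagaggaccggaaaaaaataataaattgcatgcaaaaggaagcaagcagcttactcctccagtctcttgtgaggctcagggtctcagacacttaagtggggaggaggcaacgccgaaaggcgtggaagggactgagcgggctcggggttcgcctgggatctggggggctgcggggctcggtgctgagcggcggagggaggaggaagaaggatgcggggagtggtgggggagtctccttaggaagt
Kdm5b, chr1:134559928-134560177, plus strand: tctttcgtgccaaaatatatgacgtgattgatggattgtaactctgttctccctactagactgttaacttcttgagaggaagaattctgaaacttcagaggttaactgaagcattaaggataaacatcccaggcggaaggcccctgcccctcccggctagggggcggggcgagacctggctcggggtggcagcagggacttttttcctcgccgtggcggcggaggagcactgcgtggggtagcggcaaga
Kmt5b, chr19:3767171-3767420, plus strand: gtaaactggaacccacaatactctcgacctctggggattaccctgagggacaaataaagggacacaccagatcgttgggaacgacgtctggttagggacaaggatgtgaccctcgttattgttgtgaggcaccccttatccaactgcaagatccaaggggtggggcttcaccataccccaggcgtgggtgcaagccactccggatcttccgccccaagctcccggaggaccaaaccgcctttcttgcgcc
The only matches in these 5 windows were a pair of CCAAT boxes of Suv39h1, read on the opposite strand as ATTGG, which begin 120 and 74 bases before the start. Of the 42 members with an entry, 16 held CCAAT in the same window (38.1%), against 33.8% of all 32851 RefSeq promoter windows. Each member had 1 window, chosen as above, while the 32851 windows take every RefSeq start of a gene. The shares of this and the other motifs are therefore not of like units. GCGGGAA was found in 3 of the 42 (7.14%) against 3.82%, TTTGAA in 5 (11.9%) against 16%, CACGTG in 2 (4.76%) against 6.02% and TGATGNAA in 1 (2.38%) against 3.45%. None of these motifs overlapped another in the windows printed. A match describes letters only, not a bound site.

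H3K4 is written by the KMT2 and SETD1 enzymes, each of which works on a shared core of WDR5, RBBP5, ASH2L and DPY30. All 7 writers had a ratio above 1, against 52.4% of all measured genes. The 7 writers had a median log2 difference of 0.48 and a summed level of 1006 CPM with and 1375 CPM without methionine. Kmt2a, the founding mammalian member of the family and a gene of leukaemia translocations, was at 240 and 397 CPM, 1.65-fold higher (1.59 to 1.72). Setd1b, the catalytic subunit of a SET1 complex that trimethylates H3K4 at promoters, was at 53.9 and 85 CPM, 1.58-fold higher (1.45 to 1.72). With the length correction described at the end, both Kmt2a and Setd1b lay below the threshold. Kmt2c and Kmt2d, which monomethylate H3K4 at enhancers, stayed below the threshold at 1.4-fold (1.32 to 1.49) and 1.39-fold (1.34 to 1.45) higher. The lowest ratio of the group was that of Setd1a, the close relative of Setd1b, at 51.5 and 53.2 CPM, a ratio of 1.03 (0.94 to 1.14) whose interval held 1. Kmt2b was at 168 and 181 CPM and Setd7, a monomethyltransferase that also acts on other proteins, at 98.8 and 110 CPM. Levels of different genes were compared per length, as TPM (read counts per exonic kilobase, scaled to a sum of 1000000 over all genes). On that scale Kmt2b was the highest H3K4 writer in complete medium, at 55.7 TPM, and Kmt2a without methionine, at 75.4 TPM.

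The core subunits went apart. Dpy30, the small subunit that stimulates the complex through ASH2L, had 863 read counts in complete medium and 473 without methionine, or 58.8 and 24.1 CPM. It was 2.43-fold lower (2.17 to 2.73) and sat at percentile 6.32 of the log2 differences of all measured genes. Rbbp5, the subunit that joins WDR5 to ASH2L, was at 100 and 174 CPM, 1.74-fold higher (1.64 to 1.85). Wdr5 and Ash2l lay between, with 128 and 127 CPM and with 99.9 and 88.2 CPM. Dpy30 (chromosome 17, 74299474 to 74323944, minus strand) was the most abundant core transcript per length in complete medium at 163 TPM, and without methionine, at 66.7 TPM, it lay below Rbbp5 at 140 TPM and Wdr5 at 112 TPM.

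Among the H3K4 erasers, the 3 KDM5 genes, JmjC enzymes that remove di- and trimethylation, had ratios above 1 and the 2 KDM1 genes did not. Kdm5b (ENSMUSG00000042207, chromosome 1, 134560171 to 134635285, plus strand) had 1256 read counts in complete medium and 3609 without methionine, or 85.5 and 184 CPM, 2.15-fold higher (2.02 to 2.3). Kdm5a and Kdm5c were 1.38-fold (1.3 to 1.47) and 1.35-fold (1.28 to 1.42) higher, below the threshold. Kdm1a, the flavin enzyme LSD1 of the CoREST complex, was at 138 and 110 CPM, 1.25-fold lower (1.18 to 1.33). Its relative Kdm1b was at 32.3 and 29.7 CPM with an interval that held 1 (0.96 to 1.23, complete over methionine-free). Exons of Kdm1b overlap those of Dek on the opposite strand, a gene with 4431 and 3433 read counts, and without strand in the counting their reads could not be told apart.

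**Figure D3:**
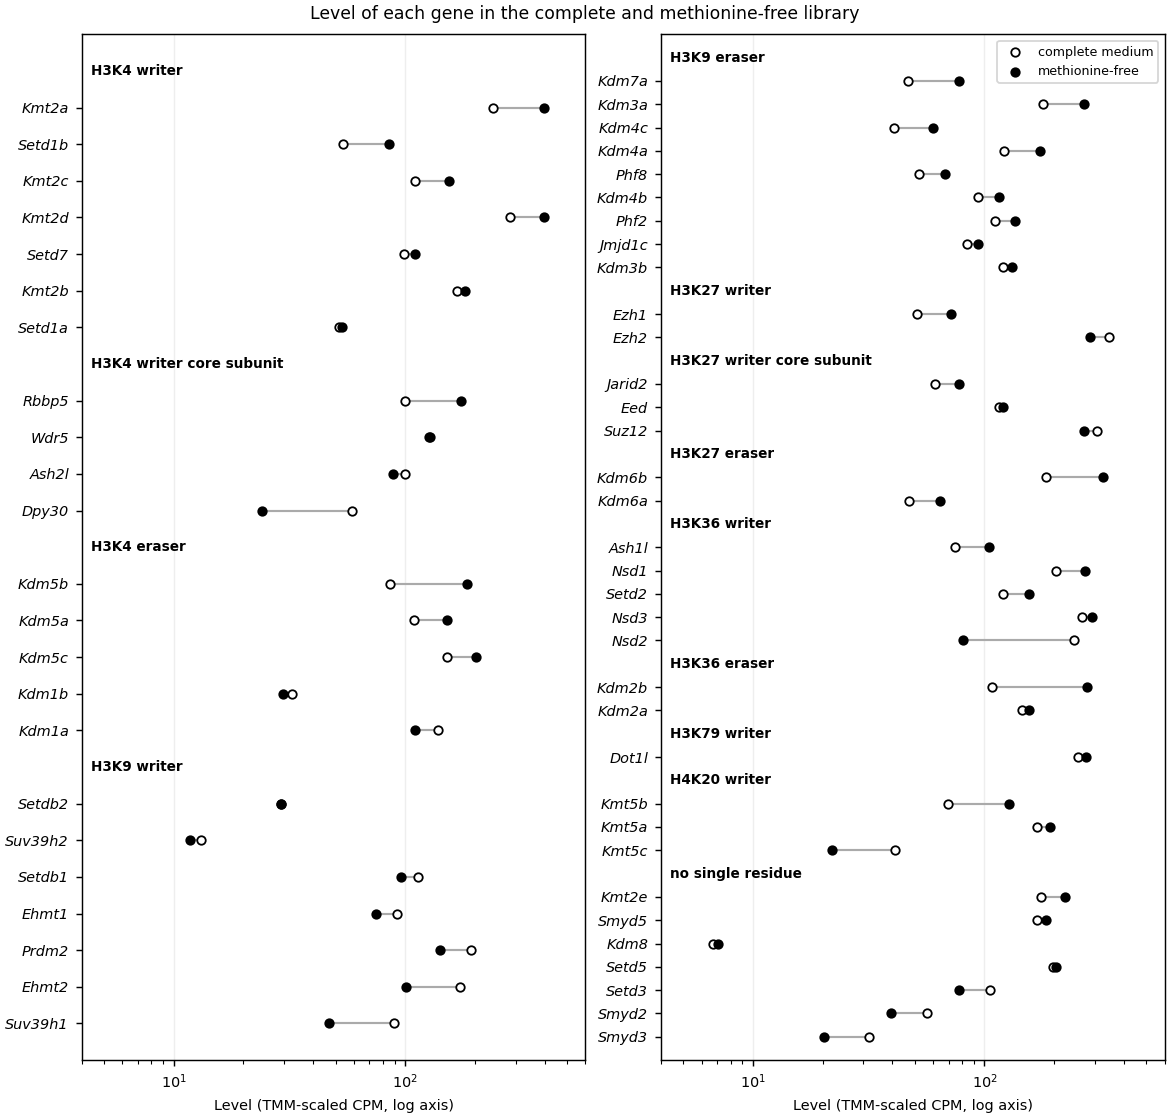
Level of each gene in TMM-scaled CPM on a log axis, with open circles for the complete-medium library and filled circles for the methionine-free library, grouped by residue and role and ordered by ratio within a group. The widest gaps are those of Nsd2 (244 to 81.1 CPM), Kdm2b (108 to 276 CPM), Dpy30 (58.8 to 24.1 CPM) and Kdm5b (85.5 to 184 CPM).

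H3K9 methylation marks heterochromatin. None of its 7 writers had a ratio above 1, against 52.4% of all measured genes. Setdb2 had a ratio of 1, and a log2 difference of 0.01 under upper-quartile scaling. The median log2 difference of the 7 writers was -0.30. Their summed level was 700 CPM with and 499 CPM without methionine. Suv39h1, which places trimethyl marks in pericentromeric heterochromatin, had 1307 and 915 read counts, or 89 and 46.7 CPM, and was 1.91-fold lower (1.75 to 2.08). Ehmt2, which encodes the dimethyltransferase G9a, was at 172 and 101 CPM, 1.71-fold lower (1.61 to 1.81). Its partner Ehmt1, which encodes GLP, was less far apart at 91.9 and 74.5 CPM, 1.23-fold lower (1.14 to 1.33). Prdm2, a zinc-finger methyltransferase, was 1.36-fold lower (1.29 to 1.44) and Setdb1, which acts with TRIM28 on endogenous retroviruses, 1.18-fold (1.1 to 1.26). For Suv39h2, with 192 and 230 read counts, and Setdb2, with 428 and 571, the interval of the ratio held 1. Exons of Suv39h2 overlap those of Dclre1c on the opposite strand over 8.1% of its exonic length, and Dclre1c had more read counts, 293 and 437. Ehmt2 was the most abundant H3K9 writer per length in complete medium, at 99.6 TPM, and Prdm2 the most abundant without methionine, at 59.9 TPM.

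All 9 H3K9 erasers had a ratio above 1, against 52.4% of all measured genes. Their intervals all excluded 1, as did those of 7264 of the 9522 genes with a mean of at least 100 read counts. With the length correction described at the end, 7 of the 9 lay above 0. The median log2 difference of the 9 erasers was 0.38. Their summed level was 849 CPM with and 1122 CPM without methionine. Kdm7a, a PHD-finger enzyme that also acts on H3K27, was past the threshold, at 46.9 and 77.8 CPM, 1.66-fold higher (1.51 to 1.82). Kdm3a, a mono- and dimethyl H3K9 demethylase, was at 179 and 269 CPM and lay a fraction under the threshold, with an interval of 1.43 to 1.57. Kdm4c and Kdm4a, which remove trimethylation of H3K9 and also of H3K36, were 1.48-fold (1.34 to 1.63) and 1.43-fold (1.35 to 1.51) higher. The lowest ratio was that of Kdm3b, the relative of Kdm3a, at 120 and 131 CPM, 1.09-fold (1.03 to 1.16). Jmjd1c, Phf2, Kdm4b and Phf8 lay between 1.11-fold and 1.3-fold. Kdm3a was also the most abundant H3K9 eraser per length, at 69.3 and 103 TPM.

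H3K27 is trimethylated by Polycomb repressive complex 2 (PRC2), in which EZH2 or EZH1 is the catalytic subunit and EED and SUZ12 are required partners. Suz12 had the most abundant transcript of the set per length in complete medium, followed by Ezh2 and, nearly level with it, Dpy30 at 163 TPM. Suz12 was at 196 TPM in complete medium and 171 TPM without methionine, and Ezh2 at 164 and 135 TPM, while Ezh1 was at 21.9 and 30.5 TPM and Jarid2 at 20 and 25.2 TPM. Suz12 and Ezh2 were both slightly lower, at 306 and 268 CPM for Suz12, 1.14-fold (1.1 to 1.19), and at 345 and 285 CPM for Ezh2, 1.21-fold (1.16 to 1.26). Ezh1, the form associated with cells that are not dividing, was at 51.3 and 71.8 CPM, 1.4-fold higher (1.28 to 1.53). Eed was at 116 and 120 CPM with an interval that held 1 (0.975 to 1.11). Jarid2, a Jumonji protein without demethylase activity that guides PRC2 to chromatin, was at 61.1 and 77.5 CPM, 1.27-fold higher (1.17 to 1.38). No PRC2 gene of the set was past the threshold.

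Both H3K27 erasers had ratios above 1. Kdm6b, which encodes JMJD3, an inducible demethylase of activated immune cells, had 2722 and 6375 read counts, or 185 and 325 CPM, 1.76-fold higher (1.68 to 1.84). Kdm6a, the X-linked UTX gene, was at 47.3 and 64.2 CPM, 1.36-fold higher (1.23 to 1.49) and below the threshold. The sum of the 2 erasers was 233 CPM with and 390 CPM without methionine, while that of the 2 writers was 396 and 357 CPM.

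The greatest differences of the set in both directions were in H3K36 genes. Nsd2 (ENSMUSG00000057406, chromosome 5, 33820725 to 33897975, plus strand), an H3K36 dimethyltransferase that is raised by a translocation in myeloma, had 3578 read counts in complete medium and 1589 without methionine. At 244 and 81.1 CPM it was 3-fold lower (2.83 to 3.19), percentile 4.53 of all measured genes. The other 4 writers had ratios above 1 and none was past the threshold. Its relatives Nsd1 and Nsd3 were at 204 and 273 CPM, 1.34-fold higher (1.28 to 1.4), and at 265 and 291 CPM, a ratio of 1.1 (1.06 to 1.15). With the length correction described at the end, Nsd3 lay below 0. Setd2, which makes trimethyl H3K36 behind RNA polymerase, was at 120 and 155 CPM, 1.29-fold higher (1.22 to 1.37). Ash1l, a dimethyltransferase of developmental genes, was at 74.7 and 105 CPM, 1.4-fold higher (1.3 to 1.51). Summed over the 5 writers the level was nearly equal, 907 and 905 CPM. Exons of Nsd2 overlap those of Nelfa on the opposite strand over 60 bases, or 0.357% of its exonic length.

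Kdm2b (ENSMUSG00000029475, chromosome 5, 122870665 to 122989823, minus strand), an H3K36 demethylase that also brings a Polycomb complex to unmethylated CpG islands, had 1588 and 5413 read counts. It went from 108 to 276 CPM, 2.55-fold higher (2.42 to 2.7), percentile 97.2 of all measured genes. Its relative Kdm2a was at 145 and 156 CPM, a ratio of 1.08 (1.02 to 1.14), and lay just below 0 with the length correction. Kdm2b exons overlap those of the antisense RNA A930024E05Rik, with 42 and 191 read counts, and of Rnf34, with 427 and 461, over 1.83% and 5.77% of its exonic length. A processed pseudogene that shares 615 bases with it at 100% identity, Gm12397, had 51 and 89 read counts. The part of these 3 genes in the read counts of Kdm2b was not tested.

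Dot1l, the only known H3K79 methyltransferase, was at 254 CPM with and 274 CPM without methionine. The ratio was 1.08 (1.04 to 1.13), below the threshold.

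The 3 writers of H4K20 act in sequence: KMT5A makes the monomethyl form, mainly around mitosis, and KMT5B and KMT5C add the further methyl groups. Kmt5a was at 169 and 192 CPM, 1.14-fold higher (1.08 to 1.2). The later enzymes lay on opposite sides. Kmt5b was at 69.5 and 128 CPM, 1.85-fold higher (1.72 to 1.99), and Kmt5c at 41.1 and 22 CPM, 1.87-fold lower (1.65 to 2.12). Per length Kmt5c was above Kmt5b in complete medium, at 32.7 against 15 TPM, and below it without methionine, at 17.4 against 27.5 TPM.

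The last 7 genes have a SET or JmjC domain but no single agreed histone residue. Smyd3, mainly a methyltransferase of a cytoplasmic kinase, was past the threshold, at 31.6 and 20.2 CPM, 1.56-fold lower (1.36 to 1.79). Smyd2, which also methylates p53, was at 56.2 and 39.5 CPM, 1.42-fold lower (1.29 to 1.57), but 30% of its exonic length overlaps the antisense RNA Gm37422, with 169 and 146 read counts. Setd3, which methylates a histidine of actin, was 1.35-fold lower (1.26 to 1.45). Kmt2e, whose SET domain is inactive, had the highest ratio of the 7, at 176 and 222 CPM, 1.26-fold (1.2 to 1.32). Setd5 and Kdm8 had intervals that held 1, the latter on 99 and 138 read counts, and Smyd5 was at 168 and 184 CPM. Smyd5 was the most abundant of the 7 per length, at 91.4 and 99.5 TPM.

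Many of these enzymes come as close relatives, and the share of one gene in the read counts of such a pair does not depend on library scaling. Of 19 pairs compared, the largest shift was in Nsd1 with Nsd2. Nsd1 took 45.6% of the pair's counts in complete medium (44.4 to 46.8, exact binomial) and 77.1% without methionine (76.1 to 78.1), an odds ratio of 4.02 (3.73 to 4.33). Kmt5b went from 62.8% (60.4 to 65.2) to 85.4% (84 to 86.6) of its pair with Kmt5c, an odds ratio of 3.45 (2.98 to 3.99). In the catalytic pair of PRC2, Ezh1 went from 12.9% (12.1 to 13.8) to 20.1% (19.2 to 21.1), so Ezh2 remained the larger part in both libraries. Kdm2a went from 57.3% (55.7 to 58.9) to 36.1% (35.1 to 37.2) of its pair with Kdm2b. By read counts the larger member changed in the pairs of Nsd1 with Nsd2 and of Kdm2a with Kdm2b. It also changed in the pair of Kdm5a with Kdm5b, where Kdm5a went from 56% (54.2 to 57.8) to 45% (43.8 to 46.2), and in that of Kdm7a with Phf8, where Kdm7a went from 47.5% (44.9 to 50.1) to 53.6% (51.8 to 55.5). In a few of the other pairs the intervals of the libraries overlapped. Kmt2c was 27.9% (26.7 to 29) and 28% (27.2 to 28.9) of its pair with Kmt2d, and Kdm5a 42% (40.4 to 43.6) and 42.6% (41.4 to 43.8) of its pair with Kdm5c.

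**Figure D4:**
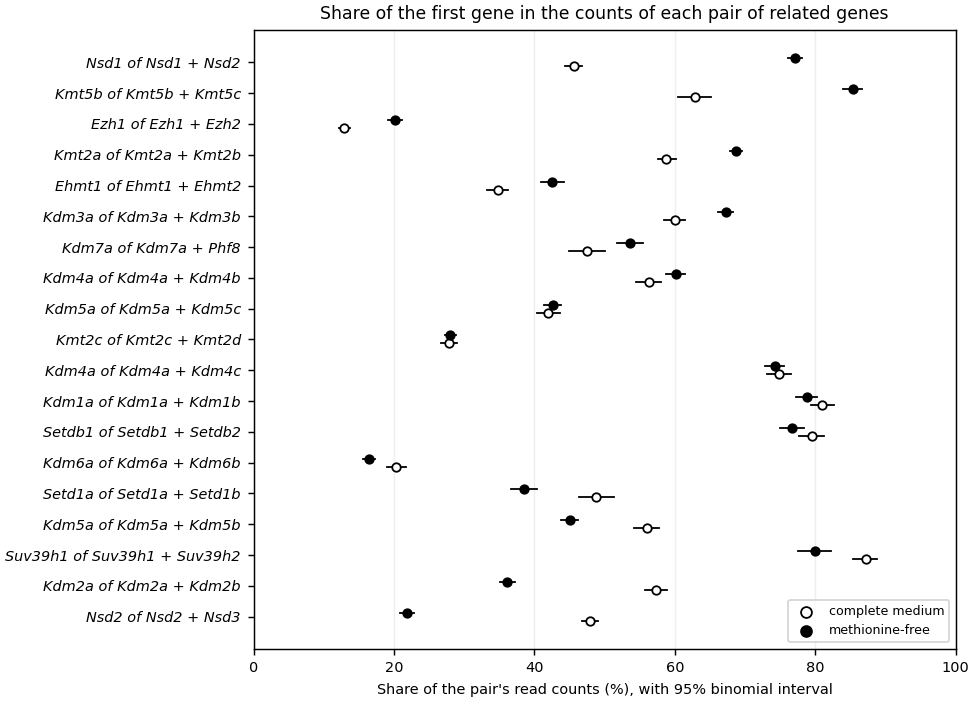
Share of the first gene in the summed read counts of each of 19 pairs of related genes, in percent, with 95% exact binomial intervals, in the complete-medium library (open) and the methionine-free library (filled), ordered by odds ratio. Nsd1 with Nsd2 and Kmt5b with Kmt5c shift most to the right, Nsd2 with Nsd3 and Kdm2a with Kdm2b most to the left.

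Partner genes of these enzymes were listed in 6 groups, to be read against the 15.7% of all measured genes at least 1.5-fold higher and the 18.1% lower. Of 8 measured PRC2 accessory and shared subunits 1 was higher and 1 lower. Phf19, a reader of methylated H3K36 that takes PRC2 to chromatin, was at 38.8 and 7.45 CPM, 5.21-fold lower (4.34 to 6.29), a greater difference than that of any of the 57 genes. Aebp2, a cofactor of PRC2, was at 338 and 544 CPM, 1.61-fold higher (1.55 to 1.66). Of 11 accessory subunits of the H3K4 writers, Paxip1 was 1.63-fold lower (1.53 to 1.75) and Bod1l 1.55-fold higher (1.45 to 1.65). Both act with H3K4 methyltransferases. Of 10 measured H3K9 partners, the heterochromatin protein genes Cbx5 and Cbx3 were lower, at 388 and 184 CPM, 2.11-fold (2.03 to 2.2), and at 150 and 81.5 CPM, 1.84-fold (1.73 to 1.97). Mphosph8, a subunit of the HUSH silencing complex, was 1.52-fold higher (1.39 to 1.67). Of 11 partners of the erasers, the corepressor gene Rcor2 was lower on 205 and 137 read counts. Of 14 measured partners and readers of H3K36, H3K79 and H4K20, Aff1, of the transcription elongation complex, was 2.05-fold higher (1.92 to 2.2). Of 16 other measured genes of the same families 3 were higher and 3 lower, 18.8% each way and near the shares of the whole table. They include Uty, the Y-linked relative of Kdm6a, at 21.8 and 40.4 CPM, and Setd6, at 50.2 and 28.1 CPM. Over the 6 groups, the medians of the log2 difference ran from -0.15 for the PRC2 subunits to 0.31 for the H3K36, H3K79 and H4K20 partners.

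Over measured protein-coding genes, the median log2 difference went from -0.04 at exonic lengths up to 2000 bases to 0.18 above 15000 bases, and 9 members lie in that last range and 11 between 10000 and 15000. With the median of genes of like length taken off each member, 6 members were past 1.5-fold in each direction, and the median of the set was 0.05. Kmt2a and Setd1b then lay below the threshold, at 0.54 and 0.53 on the log2 scale. Nsd3 went from 0.14 to -0.05, Kdm2a from 0.11 to -0.02, Jmjd1c from 0.16 to -0.03, and Kdm3b to 0.00. The 7 H3K9 writers all remained below 0 and had a median of -0.38, 13 of 18 erasers remained above 0 with a median of 0.35, 7 of 9 H3K9 erasers with a median of 0.30, and 6 of 7 H3K4 writers with a median of 0.30. Nsd2, at -1.77, lies in the last range, where the median of all genes was above 0, while Dpy30 is the shortest, at 1146 bases. The labels name both a whole-RNA and an mRNA library kit without saying which library was made with which, so kit and medium cannot be told apart. The 26 cell cycle genes had a median log2 difference of -2.96, and their part in the lower level of Nsd2, Suv39h1, Ezh2 or Dpy30 was not tested.

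**Figure D5:**
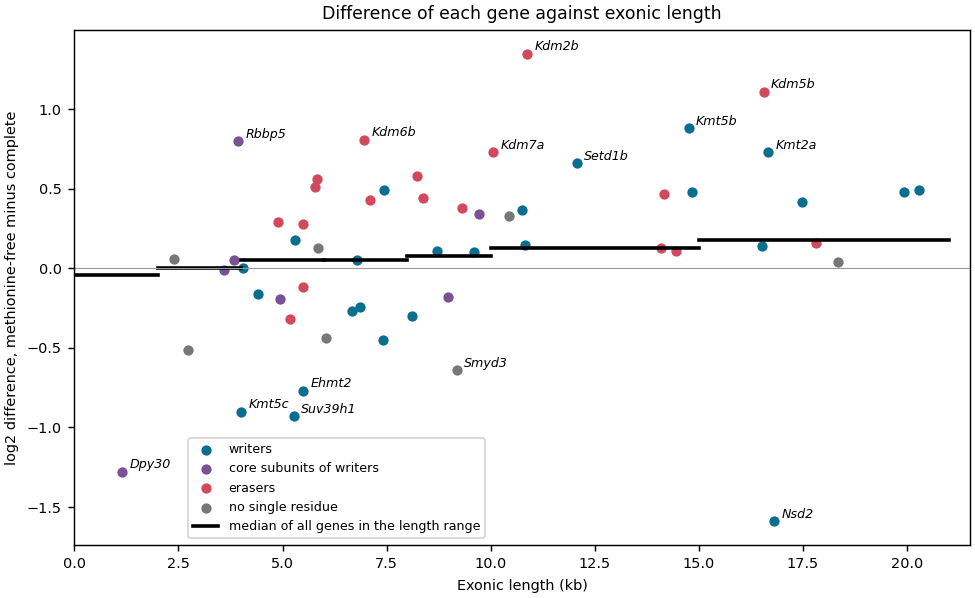
log2 difference (methionine-free minus complete) of each of the 57 genes against its exonic length in kilobases, coloured by role, with black lines for the median of all measured protein-coding genes in each length range. The black lines rise from -0.04 to 0.18, and Nsd2, among the longest genes, is the lowest point.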

How the data were processed

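Total RNA was extracted with TRIzol and made into libraries with a whole-RNA or an mRNA kit, per the labels' protocols. The authors deposited raw read counts per Ensembl gene for 1 library per medium. Per the submitters' processing notes, the build was mm10. Aligner, counter, annotation and strand setting: not given in the sources used here. Columns, whose names carry the numbers 2 and 1, were matched to the samples by inference. By title and description, 1 sample is the only control and the other the only one named for methionine.

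Symbols, spans and exonic lengths (union of exons) came from GENCODE M21 (GRCm38), which held 54495 identifiers and lacked 37. Counts were scaled with TMM (edgeR 4.0.16, R 4.3.3), with factors of 1.003 and 0.997. Log2 differences used a prior of 0.5 counts in proportion to library size, folds used none. A gene was measured where its 2 counts averaged 10 or more. Intervals are 95% Clopper-Pearson intervals (scipy 1.17.1, Python 3.11.15), and cover counting error only, since no molecular identifiers are named. TPM was computed from counts per exonic kilobase. Similar transcripts were sought with BLAST 2.17.0, at 95% identity or more over 300 bases. The steps were run on simulated counts with counting error only, which checks the code and says nothing about the spread between cultures.

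The genes, groups and lists were chosen with earlier results of these data known. Genes named were those past 1.5-fold, all of the H3K27, H3K36, H3K79 and H4K20 groups, the extremes of the other groups, and up to 4 partners per list. Further members, and Kdm5d, Jmjd6, Riox1, Riox2, Kdm4d and Hspbap1, were named after their values were seen. Alternatives were other scalings (DESeq2 1.42.0 size factors, total counts, upper quartile, TMM without cell cycle genes), count minimums, prior counts and thresholds. The correction for length was added after the data were seen.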

Additional observations from a re-analysis of the deposited data

How the results depend on the processing

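The numbers of genes at least 1.5-fold higher and lower were 8 and 6 with DESeq2 size factors and with total counts. They were the same with TMM outside the cell cycle list and after division by the median ratio of all genes. The count minimums tried could not change these numbers or the median, since every member had a mean of at least 100 read counts. The demand that the counting interval exclude 1 also left 8 and 6, and at such counts it could hardly do otherwise. Upper-quartile scaling gave 9 and 6. The threshold of 2-fold left 2 and 2. The median log2 difference of 0.14 stayed between 0.13 and 0.15 under the scalings and prior counts tried. It was 0.05 after the length correction, where 6 genes were higher and 6 lower. No gene past 1.5-fold changed sign under any alternative run. The odds ratios of the 19 pairs were the same per exonic kilobase, which follows from their construction. No replicate could be left out, since there was 1 library per medium. No paired analysis was possible because each medium has a single library. At 99 and 138 read counts for Kdm8, the interval of 0.801 to 1.37 limits what could be detected. The spread between cultures was not measured.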

Other observations

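Grouping the erasers by cofactor, a grouping chosen after their values were seen, put all 16 JmjC erasers above a ratio of 1 and both flavin enzymes, Kdm1a and Kdm1b, below it, with the interval of Kdm1b holding 1. Of all measured genes 52.4% had a ratio above 1. The JmjC erasers had a median log2 difference of 0.45 and summed to 1680 CPM with and 2481 CPM without methionine. The flavin enzymes summed to 170 and 140 CPM. After the length correction 13 of the 16 JmjC erasers were above 0, with a median of 0.37. The Y-linked JmjC genes, Uty and Kdm5d, which are not in the set, were at 21.8 and 40.4 CPM, 1.86-fold higher (1.63 to 2.12), and at 41.4 and 55 CPM, 1.33-fold higher (1.2 to 1.47). Of the other listed JmjC genes outside the set, Jmjd6, Riox2 and Kdm4d had ratios above 1, Kdm4d on 2 and 19 read counts. Riox1 had an interval that held 1 (0.993 to 1.21), and Hspbap1 a ratio of 0.879 (0.736 to 1.05). Kdm8, a JmjC gene of the set not counted as an eraser, had an interval that held 1.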
